A study of Mus musculus with 4 samples.

Results

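Peaks of SOX3 were examined at 6 genes that encode chromatin regulators in mouse testis at postnatal day 7: Kmt2a, Setd2, Kdm5b, Brd2, Hmgb1 and Phf10. SOX3 is a SOX B1 transcription factor, and its binding was mapped by chromatin immunoprecipitation and sequencing (ChIP-seq). The genes were chosen by the measured peaks: each is named as the nearest gene in the authors' deposited table of peaks common to the replicates, and 9 of the 778 common peaks carry one of the 6 names. The values of these peaks are therefore a description, and no test was made on them.

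The labels give 3 SOX3 ChIP samples and 1 input sample, the chromatin before immunoprecipitation, all from testis of the 129/SvJ strain at postnatal day 7. The ChIP used a polyclonal antibody made in goat against human SOX3. The labels' protocols name a Sox3 null line of mixed origin crossed onto 129/SvJ and state no genotype for any single testis, and the design text gives 3 different testes. No source used here says whether the testes came from different animals. Whole testis holds germ cells and somatic cells together, so a peak cannot be given to a cell type. Peak lists hold no expression values, so the labelled tissue was not checked against markers. The replicate lists held 2912, 2598 and 2734 peaks. The authors' scores started at about 40 in every list and had medians of 47.8, 48.1 and 47.3. Read depth is unknown, and input values were not analysed here, so no score was compared with input. No source used here says whether the authors' scores took the input into account.

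Histones carry methyl and acetyl groups that regulate transcription. Writer enzymes add these groups, erasers remove them and readers bind them, while remodeling complexes move nucleosomes and architectural proteins bend DNA. Among writers, KMT2A methylates histone H3 at lysine 4 and SETD2 methylates it at lysine 36. The eraser KDM5B removes methyl groups from lysine 4 of histone H3, the reader BRD2 binds acetylated histones through its bromodomains, PHF10 is a subunit of the PBAF remodeling complex, and HMGB1 is an architectural protein. SOX proteins and HMGB1 both contact DNA through HMG domains, and SOX proteins recognise short sequences with the core ACAAT.

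Promoter sequences are shown for the genes whose common peak met the stretch just upstream of the transcription start site (TSS). The sequences are from RefSeq, build GRCm38.p6, whereas the peaks are in mm9. The RefSeq start and the start used for the peak distances may thus differ by some bases or be different starts. Only where the starts are the same do the sequences show letters at or beside those peaks. All 6 genes had at least 1 entry in the RefSeq table. For Hmgb1 the outermost of its 2 RefSeq starts, which lie 1441 bp apart, is shown. That start was not matched to the mm9 start, so the Hmgb1 letters may lie away from its peak. Capitals mark matches of 3 motifs on either strand. These were ACAAT (the SOX core), the NF-Y site CCAAT and GGGCGG, a site of the SP factors. Bases downstream of the RefSeq start, or within the RefSeq limits of the gene, are not printed, and for Phf10 the stretch ends where its peak would end were both starts the same. Kmt2a is at chr9:44881353-44881539, minus strand, Hmgb1 at chr5:149053058-149053307, minus strand, and Phf10 at chr17:14961433-14961510, minus strand.
Kmt2a: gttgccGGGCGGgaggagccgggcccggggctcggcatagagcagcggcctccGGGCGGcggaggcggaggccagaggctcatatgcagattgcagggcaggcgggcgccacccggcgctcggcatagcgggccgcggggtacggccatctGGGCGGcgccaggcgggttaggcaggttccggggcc
Hmgb1: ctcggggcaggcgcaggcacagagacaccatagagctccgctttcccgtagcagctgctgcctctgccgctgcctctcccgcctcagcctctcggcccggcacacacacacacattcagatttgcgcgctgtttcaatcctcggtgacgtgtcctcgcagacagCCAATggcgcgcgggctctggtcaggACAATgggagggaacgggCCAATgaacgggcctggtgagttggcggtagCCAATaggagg
Phf10: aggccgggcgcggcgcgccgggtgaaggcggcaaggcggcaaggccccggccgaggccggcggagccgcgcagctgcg

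The Hmgb1 stretch held ACAAT once, at 60 bp upstream of the start shown, between CCAAT matches at 86, 42 and 11 bp upstream. The window of the other Hmgb1 start held neither and had 4 matches of GGGCGG, and which start belongs to the peak is not known. The Kmt2a stretch held neither the SOX core nor CCAAT and had 3 matches of GGGCGG, at 244, 197 and 99 bp upstream. Were both starts the same, the Kmt2a peak would run from 166 bp upstream to 55 bp downstream, so that of these only the match at 99 bp lies in it, and the part of the peak past the printed stretch holds GGGCGG matches at 39 bp upstream and 44 bp downstream. The Phf10 stretch of 78 bases had none of the 3 motifs, a GC content of 84.6% and 15 CpG dinucleotides. Among the 9 whole RefSeq windows of the 6 genes, from 250 bp upstream to 50 bp downstream (3 starts for Brd2 and 2 for Hmgb1), ACAAT was found in 2, of Hmgb1 and Kdm5b, CCAAT in 1, of Hmgb1, and GGGCGG in 7. Every gene had GGGCGG at 1 or more starts, but the Hmgb1 start shown here and the outermost Brd2 start had none. Of the 32851 windows of the table, 31% held ACAAT, 37.4% CCAAT and 35.7% GGGCGG. Some GGGCGG matches of Setd2 and Phf10 overlapped each other. The 9 windows had GC contents from 54.7% for Kdm5b to 87% for Phf10, against a median of 52.7% for all windows. These matches describe letters only, and the peaks of Setd2, Kdm5b and Brd2 lay outside the stretch upstream of the start used for their distances.

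Peaks near the start of the gene were the common arrangement: the TSS of 5 of the 6 genes lay within 1000 bp of a common peak, and Setd2 was the exception at about 6 kb. Of the 9 common peaks, 6 were within 1000 bp, against 17.2% of all 778. By HOMER's classes 3 were at a promoter, 3 in an intron, 1 in an exon of a transcript listed as non-coding, 1 at a transcription termination site and 1 intergenic. Peaks in all 3 replicate lists numbered 4 of 9, against 29.9% of all common peaks. The remaining 5 were in 2 lists, each with replicate 3 as one of them. No matching share over all common peaks is given for that, so it says nothing particular about these genes. When common peaks within 1000 bp of each other were joined, a setting added after seeing the data, 5 of the 6 loci had a peak in every list, against 31.8% of the 710 joined loci. Since presence in at least 2 lists chose these peaks, nothing about the genes follows from those shares. The smallest overlap between a member peak and a replicate peak was 63 bp, at the third Kdm5b peak, where 1 bp was enough to count.

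Scores spread widely within the group. The highest replicate peak at each common peak had a score at or above that of 13.8 to 97.8% of its own list, with a median of 95.1% over 22 values. Of the 9 common peaks, 7 had a score of 100 or more in at least 1 list, against 36% of all common peaks. The 3 Kdm5b peaks are among the 7 and share 1 replicate 3 peak, through which alone 2 of them reach 100. With each replicate peak counted once, a setting added after seeing the data, the median was 94.5% over 20 values. A score of 100 was reached by 7.66, 7.81 and 7.17% of the peaks in the 3 lists. At 2 of the 6 loci, Setd2 and Phf10, the best score was 100 or more in each of the 3 lists. No matching share over all joined loci is given, so nothing about the genes follows from this count. No source used here names the scale of the score, so the position within a list stands beside it.

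**Figure D1:**
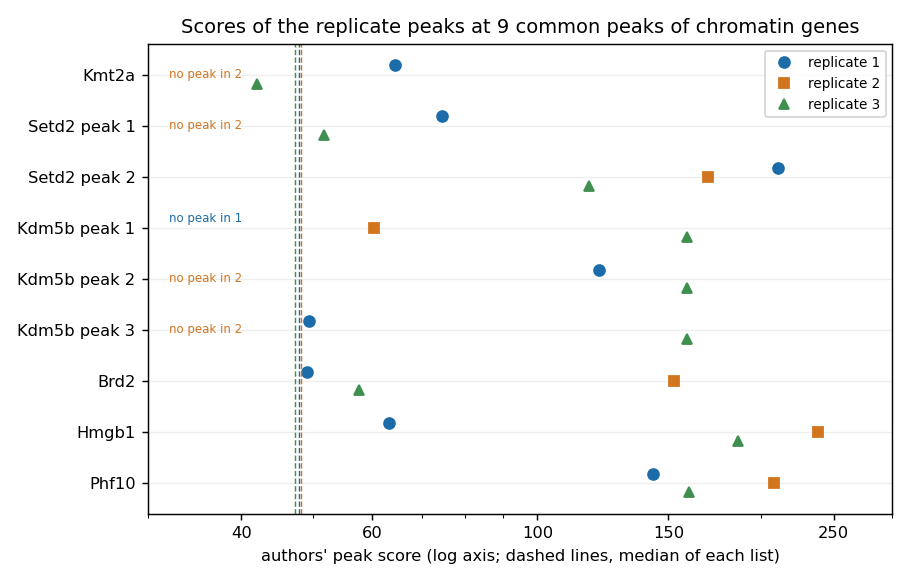
Authors' score (log axis) of the highest replicate peak at each of the 9 common peaks, 1 symbol per replicate, with the median of each list as a dashed line. Phf10 and the second Setd2 peak lie above 100 in all 3 replicates, and the lowest symbol is that of Kmt2a in replicate 3. A list without a peak is written at the left.

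Kmt2a, whose product trimethylates lysine 4 of histone H3 at promoters and keeps Hox genes active, had the lowest best score of the 6 genes. It was also the only locus without a peak in every list. In replicate 1, however, it scored above Brd2 and Hmgb1. With a 50% reciprocal overlap its peak stayed in 2 lists, while Brd2, each Kdm5b peak and the nearer Setd2 peak fell to 1. The Kmt2a common peak was on chromosome 9 from 44689302 to 44689523 (mm9), classed at the promoter, with its midpoint 55 bp upstream of the TSS. Its score was 64.4 in replicate 1, at or above 80.4% of that list, and 41.98 in replicate 3, at or above 13.8%. Replicate 2 had no peak within 50 kb of this TSS. The replicate 3 value was thus close to the lowest score of its list. A further peak of replicate 1, from 44689530 to 44689712, lay 6 bp farther upstream with a score of 57.5 and overlapped no common peak. The promoter peaks most like that of Kmt2a in score percentile, among 14 promoter peaks present in replicates 1 and 3 alone, were those of Sdccag8 and 4930552P12Rik, with mean differences of 6.27 and 7.60 percentage points over 2 lists.

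Setd2, which encodes the enzyme that trimethylates lysine 36 of histone H3 in transcribed genes, had strong peaks in every list, but none at its promoter. A pair of common peaks lay on chromosome 9, 132 bp apart, within a span of 1388 bp. The nearer peak, from 110428486 to 110429550 with its midpoint 6083 bp upstream of the Setd2 TSS, was intergenic. HOMER's detailed class for it was a B4A element, a SINE retrotransposon, and how much of its 1065 bp the element covers was not examined. The nearer peak scored 211 in replicate 1, 169 in replicate 2 and 117 in replicate 3, ranks of 66, 90 and 149 in their lists. Those scores were at or above 97.8, 96.6 and 94.6% of the lists, so this peak was among the high ones in each testis.

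The farther Setd2 peak, from 110428163 to 110428353, had scores of 74.6 (replicate 1) and 51.6 (replicate 3) but nothing overlapping it in replicate 2. HOMER classed it at the termination site of NM_010628, a transcript of Kif9, a kinesin gene that precedes Setd2 on the same strand in the RefSeq order. Setd2 is named because its TSS is the nearest, and the peak stands where Kif9 ends. Over both common peaks the replicates had 3, 2 and 4 separate peaks covering 1113, 637 and 798 bp. The gaps between neighbouring peaks of a replicate were 38 to 221 bp, and no other peak of any list lay within 50 kb of the Setd2 TSS. Among 187 peaks outside promoters and in all 3 lists, that of Ehbp1 was one of those most like the nearer peak in score percentile. The mean difference was 0.781 percentage points, and HOMER's detailed class for the Ehbp1 peak was a simple repeat.

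Kdm5b, which encodes the demethylase that opposes KMT2 enzymes, had 3 common peaks in intron 1, all in sequence that HOMER's detailed class lists as CpG, against 2.96% of all common peaks in that class. They lay on chromosome 1 from 136457210 to 136457415, from 136457441 to 136457676 and from 136457718 to 136457907, with midpoints 557, 803 and 1057 bp downstream of the TSS. Each was in 2 lists, yet every list had a peak in the 698 bp they span. Replicate 1 had peaks with scores of 121 and 49.3, replicate 2 had 1 of 60.3, and replicate 3 had 1 of 159 that was 486 bp wide. The single replicate 3 peak met all 3 common peaks, so its score, at or above 96.4% of the list, appears at each of them. The replicate 2 peak ended 25 bp before the first peak of replicate 1, and these replicates share no base there. Only the replicate 3 peak thus links the 3 common peaks, and whether they are 1 stretch that the lists divided differently was not tested. Kdm5b and Setd2, 2 of the 6 genes, had 2 or more common peaks, against 12.5% of the 656 nearest genes.

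Brd2 encodes a BET protein, a reader of acetylated histones. Its common peak was on chromosome 17 from 34256095 to 34256550, in exon 1 of NR_037970, a Brd2 transcript listed as non-coding, and its midpoint lay 523 bp downstream of the TSS. Replicate 2 had a peak of 456 bp with a score of 152, at or above 96.0% of its list. Replicate 1 had a pair of weaker peaks, with scores of 49.1 and 43.1 and a gap of 32 bp, and replicate 3 had 1 with a score of 57.5. The highest peaks in replicates 1 and 3 were at or above 54.3 and 76.2% of their lists. Brd2 was therefore found in all 3 lists but was high in replicate 2 alone. The non-promoter peak most like it over 3 lists was that of Mafk (scores of 48.3, 146 and 70.8), with a mean difference of 4.20 percentage points, followed by that of Atg16l2 (7.45 points).

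Phf10 encodes a PHD finger subunit of the PBAF complex and had the widest common peak of the 6 genes. It was on chromosome 17 from 15098410 to 15099907, 1498 bp wide, and ran from 1670 to 173 bp upstream of the TSS, with the midpoint at 921 bp. Of all common peaks 5.14% were 1000 bp wide or more, and the nearer Setd2 peak was another. The best scores were 143, 208 and 160 in replicates 1, 2 and 3, ranks of 126, 69 and 96. Replicates 1 and 3 each had a pair of peaks there, with gaps of 15 and 14 bp and second scores of 59.0 and 74.4, and replicate 2 had 1 peak of 1489 bp. Each list thus placed Phf10 at or above 95.7 to 97.4% of its peaks.

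The Phf10 peak did not stand alone. A common peak starting 31583 bp away, from 15129993 to 15131491, was 1499 bp wide, was named for 9030025P20Rik at 14914 bp from its TSS, and scored 197, 218 and 170. In replicate 2 the peaks at the Phf10 and 9030025P20Rik places were 1489 and 1490 bp wide, and in replicate 3 the higher peaks were 827 and 828 bp wide. Promoter peaks of Gm3448, from 15115290 to 15116168, and Gm3417, from 15146651 to 15147540, had highest peaks of equal score in each list: 40.8, 69.04 and 52.96. Those highest peaks also had equal widths of 677, 587 and 406 bp. Replicate 1 had a second peak at Gm3417, 201 bp wide with a score of 40.65, and 1 peak at Gm3448. Peaks with another of equal score and width within 50 kb in the same list made up 1.65, 2.31 and 1.94% of the lists. Reads that fit near-identical copies may be placed at any of them, and no source used here gives the authors' handling of such reads. Whether these 4 places are such copies was not tested, so how separate their signals are is not known. The transcript that HOMER named for Gm3448, NM_001123370, is listed under 9030025P20Rik in the RefSeq table. A peak of replicate 2 that covers 245 to 422 bp downstream of the Phf10 TSS scored 41.0 and was in no other list.

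**Figure D2:**
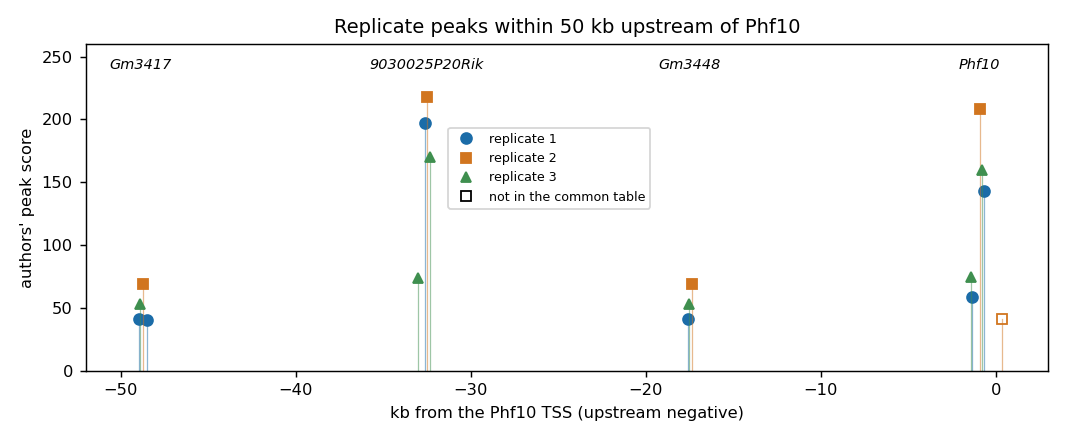
Authors' score of each replicate peak (vertical axis) against the distance of its midpoint from the Phf10 TSS in kb (horizontal axis), with the nearest gene of each common peak written above. The stronger groups, at Phf10 and 9030025P20Rik, reach 143 to 218, and the highest peaks at Gm3448 and Gm3417 have equal scores in each replicate, with a second replicate 1 peak of 40.65 at Gm3417.

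Hmgb1 encodes an abundant non-histone protein that bends DNA and loosens nucleosomes, and its peak was the one closest to a TSS. It lay on chromosome 5 from 149864458 to 149864875, classed at the promoter, and covered 242 bp upstream to 175 bp downstream of the TSS with the midpoint 33 bp upstream. Replicate 2 scored 238 and replicate 3 scored 186, ranks of 57 and 78 and at or above 97.8 and 97.2% of their lists. Replicate 1 scored 63.2, rank 600, at or above 79.5% of its list. The peak was thus near the top in replicates 2 and 3 and more moderate in replicate 1, where it was also narrower (223 bp against 418 and 456 bp). No other peak of any list lay within 50 kb of this TSS. The promoter peaks most like it in score percentile, among 42 in all 3 lists, were both named for the histone gene Hist1h2br. Their mean differences were 4.19 and 4.36 percentage points. Both scored 64.88 in replicate 1 and 81.75 in replicate 2, below the 238 of Hmgb1 there, and they scored 127 and 121 in replicate 3. Whether these 2 places are near-identical copies was not tested. The promoter peaks most like that of Phf10 in score percentile were at Hist2h3c1 and Kansl3, with 0.799 and 0.934 points.

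**Figure D3:**
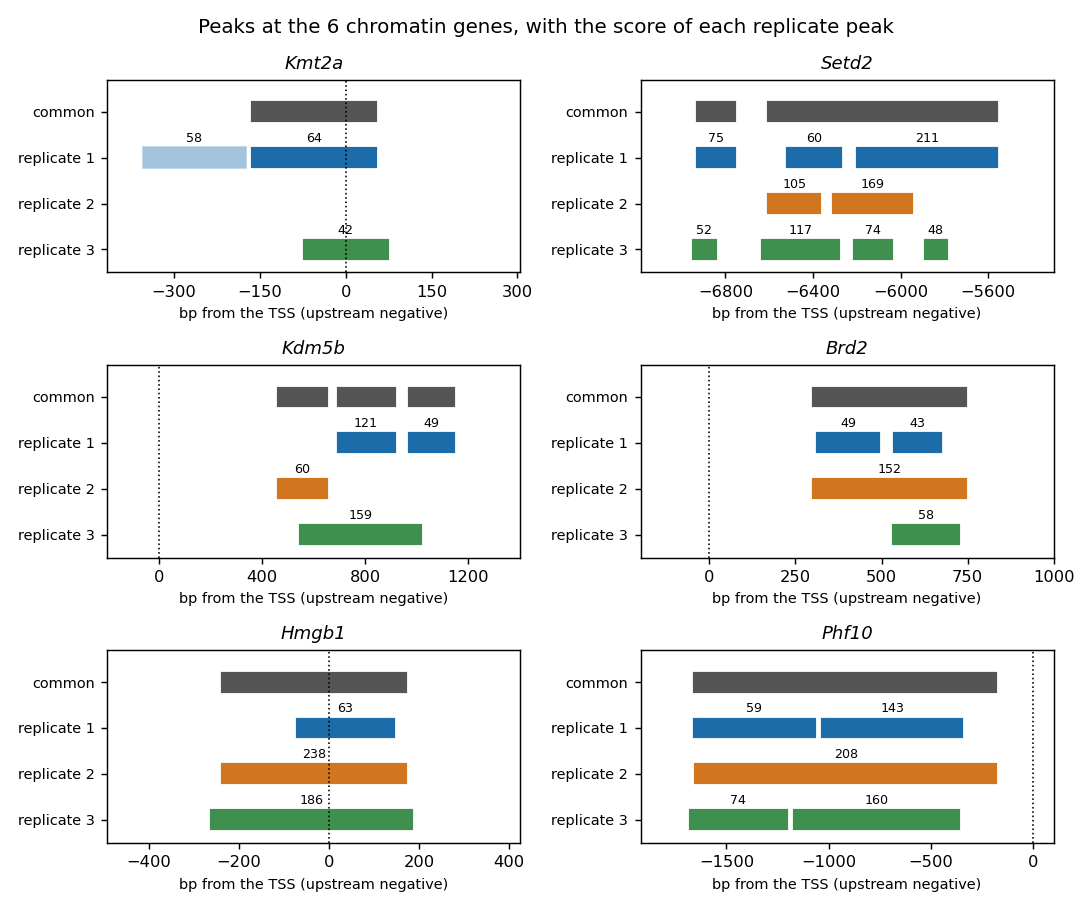
Extent of each peak in bp from the TSS (upstream negative, dotted line at the TSS where it falls in the panel) for the common table and the 3 replicates, with the score over each replicate peak. Pale bars overlap no common peak. The Kmt2a and Hmgb1 peaks cover the TSS, the Setd2 peaks lie about 6 to 7 kb upstream, and the replicate 3 peak of Kdm5b spans parts of all 3 common peaks.

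Genes of the same machinery beyond the 6 were counted as well. A set of 231 chromatin genes in 14 families, the 6 included, was compiled with earlier results of these data known. A common peak lay 5000 bp or less from the TSS of 10 of the 231 (4.33%), against 0.712% of 21900 protein-coding genes. Of the 225 that remain without the 6 genes, 5 had one (2.22%). At any distance, 9 of the 225 were the nearest gene of a common peak. There were 656 nearest genes in all, and no share of all genes at any distance is given. These counts were not tested, since the 6 genes were chosen for their peaks.

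The 5 others were Brd1, Phip, Smarca5, Kmt5b and Chd7. Phip, a bromodomain protein gene, had a pair of promoter peaks with midpoints 310 bp upstream and 38 bp downstream of the TSS. The first scored 122 in replicate 2 and 45.5 in replicate 3, and the second 102 in replicate 1 and 53.98 in replicate 3, so replicates 1 and 2 met different peaks. Smarca5, which encodes the ATPase of ISWI complexes, was marked in all 3 lists by a peak 137 bp past its TSS (scores of 126, 65.4 and 44.1). Brd1, a bromodomain gene of histone acetyltransferase complexes, had an intergenic peak 4330 bp upstream, also in all 3 lists, with scores of 131, 102 and 60.5.

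Kmt5b, named Suv420h1 in the common table and encoding a methyltransferase of lysine 20 of histone H4, had a peak 656 bp past its TSS that scored 60.3 (replicate 1) and 70.98 (replicate 2). Chd7, a CHD remodeler gene, had one in intron 1, 1944 bp downstream, with 56.9 in replicate 1 and 47.9 in replicate 3. Farther peaks had Arid1b (16630 bp), Ss18 (35005 bp), Phf3 (100886 bp) and Brwd3 (150297 bp) as nearest genes, each in 2 lists. HOMER's detailed class was a LINE L1 element for those of Phf3 and Brwd3 and a U1 snRNA repeat for that of Ss18.

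By family, 3 of 24 bromodomain readers met the 5000 bp limit, Brd1, Brd2 and Phip. ISWI, CHD and INO80 remodelers had 2 of 16. KMT2 and SET1 enzymes with their subunits had 1 of 15 (Kmt2a), other lysine methyltransferases 1 of 14, lysine demethylases 1 of 22 (Kdm5b), high mobility group genes 1 of 15 (Hmgb1) and BAF and PBAF subunits 1 of 26 (Phf10). The other 7 families had 0: writers of lysine 36 methylation (5 genes, since Setd2 lay beyond the limit), other Phf genes (16), acetyltransferases (10), deacetylases and sirtuins (16), Polycomb genes (24), heterochromatin and DNA methylation genes (16) and histone chaperones (14). Close relatives of the 6 genes, such as Kmt2b and Kmt2c, Kdm5a and Kdm5c, Brd3, and Hmgb2 and Hmgb3, were not the nearest gene of any common peak. These examples were chosen after their values were seen. Absence is the usual case, since only 0.712% of all protein-coding genes had a common peak within 5000 bp. Nothing particular to the 6 genes follows from these absences or from the 7 families with 0.

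**Figure D4:**
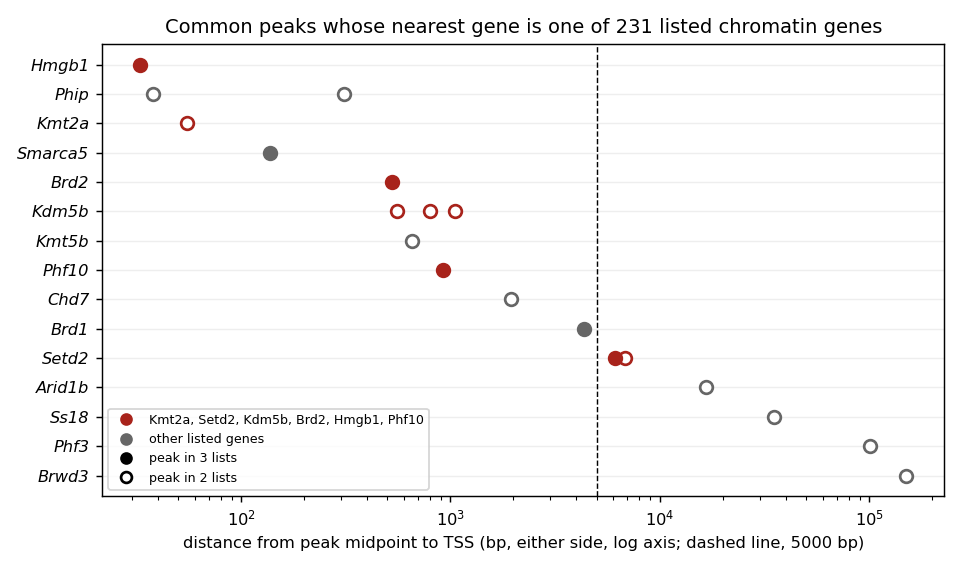
Distance from the midpoint of each common peak to the TSS of its nearest gene (log axis, either side) for the 15 listed chromatin genes with a common peak. Red marks the 6 genes of the report and grey the other 9, filled symbols are peaks in 3 lists and open symbols peaks in 2, and 10 genes have a peak left of the dashed line at 5000 bp.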

How the data were processed

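ChIP libraries of 3 testes were sequenced by the submitters. Per the submitters' processing notes, Bowtie2 2.0.0 and the mm9 build were used. Peak names begin with MACS in the deposited lists, and no source used here states the peak caller's version or settings. The score of each peak in those lists is the authors' own value and was read by its position within a list, with fixed minimum scores applied to each list in the same way. Per the file headers, HOMER (annotatePeaks.pl, mm9) annotated the common table from a file of sites in at least 2 samples. Its deposited distance to the TSS, in bp from the peak midpoint, was used as given. Its deposited score was 0 throughout and was not used.

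Common and replicate peaks were matched at an overlap of at least 1 bp (pandas 2.3.3, counts checked with bedtools 2.31.1, overlap counting tested on simulated data). Where several peaks of a list met a common peak, the highest score was taken. The mm9 TSS was derived from the midpoint and the deposited distance. Nearest genes were matched by gene identifier to the RefSeq table of GRCm38.p6. No coordinate was converted between builds. The alternatives tried were other overlaps, minimum scores and TSS distances, and leaving out each replicate. The members and gene lists were chosen with earlier results of these data known. Genes are named by rule: the 6 genes, each listed chromatin gene that is nearest to a common peak, the 2 genes of other peaks closest in mean score percentile among peaks in the same lists and class (promoter or other), and nearest genes of common peaks within 50 kb. Close relatives without a peak, named as examples, were chosen after their values were seen. The alike pairs of the farther Setd2 peak and the Kdm5b peaks are left out of the text. A gene that the rule names for the nearer Setd2 peak is not reported here.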

Additional observations from a re-analysis of the deposited data

How the results depend on the processing

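Of the 9 common peaks at the 6 genes, 4 were in all 3 lists. This fell to 1 (Hmgb1 alone) with a 50% reciprocal overlap and to 2 with replicate peaks of score 100 or more. Matching shares of all common peaks under these settings are not given. The number of the 9 in at least 2 lists was 9, by construction. It became 4 with a 50% reciprocal overlap, 5 with scores of 60 or more and 4 with scores of 100 or more. In the pair of lists left after taking out a replicate it ranged from 4, without replicate 3, to 8, without replicate 2, with 5 without replicate 1. Of the 6 genes 5 had a common peak 5000 bp or less from the TSS, and 3 among peaks in all 3 lists, with a range of 3 (without replicate 3) to 5 when a replicate was left out. For the 231 listed genes the number was 10, then 5 among peaks in all 3 lists and 6 (without replicate 3) to 9 when a replicate was left out. The median score percentile of 95.1 became 79.9 when ranks were taken only among peaks at common peaks, since those are the stronger peaks of a list. A limit of 1000 or 50000 bp, an overlap of 100 bp and the peak of largest overlap in place of the highest moved no count of the 6 or of the listed genes by over 1.5 times. The share of all protein-coding genes, 156 or 0.712% at 5000 bp, became 397 or 1.81% at 50000 bp, where 13 listed genes met the limit, and 82 or 0.374% among peaks in all 3 lists. No paired analysis was possible because the input sample has no values here and only 1 group is described. Read depth is unknown, so a missing peak may be a missed one.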

Other observations

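The ends of the common peaks followed replicates 1 and 2. At all 778 common peaks, the 9 at the chromatin genes included, the start and the end each equalled the start and end of a peak in replicate 1 or 2. A replicate 3 peak had the same start at 20 and the same end at 13 of the 778. Midpoints and TSS distances of the common table, such as the 3 of Kdm5b, are thus set by those replicates, and the replicate 3 peak at Kdm5b, which runs across all 3, gave no boundary. Of the 624 replicate 3 peaks that met a common peak, 12 met 2 or more, and the one at Kdm5b was the only one to meet 3. In replicate 2 the number that met 2 or more was 7, and in replicate 1 it was 0. Among the 710 joined loci, 49 were made of 2 or more common peaks.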
